A study of Mus musculus with 3 samples.

Results

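T helper cells take on their effector type under cytokines that antigen-presenting cells release, and 8 genes for such cytokines or their subunits (Il12a, Il12b, Il23a, Il27, Ebi3, Il6, Il10 and Il15) were followed with both chains of the IL-10 receptor (Il10ra and Il10rb). The 10 genes were chosen by name for this role, with earlier results of these data known, and all 10 are among the 22238 genes listed in all 3 libraries. RNA came from wild-type female C57BL/6J mice, 10 to 12 weeks old, immunized with MOG peptide in complete Freund's adjuvant and given 250 ng of pertussis toxin 2 h and 24 h later, which induces experimental autoimmune encephalomyelitis (EAE), a mouse model of multiple sclerosis. Cells were sorted on days 14 to 15, and no unimmunized mice entered the comparison. Bone marrow monocytes were CD45+ CD11b+ Ly6Chi Ly6G- CD11c- cells of 13 mice from 2 experiments. Spinal cord monocytes were CD45+ CD11b+ CD64+ Ly6Chi Ly6G- cells, and the monocyte-derived antigen-presenting cells (APCs) had the same markers with low or no Ly6C. The last 2 populations each came from 18 mice in 3 experiments. For the APC library the labels disagree, since the source name gives bone marrow while the title and the tissue give spinal cord, which is the tissue used here.

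IL-12, IL-23 and IL-27 are heterodimers of an alpha and a beta chain. Il12a and Il23a encode the alpha chains of IL-12 and IL-23, both of which pair with the beta chain encoded by Il12b, whereas the alpha chain from Il27 pairs with the beta chain from Ebi3. IL-12 directs CD4+ T cells to the Th1 type that makes interferon-gamma, IL-23 sustains Th17 cells, IL-6 together with TGF-beta starts Th17 differentiation, and IL-27 and IL-10 restrain these responses. IL-15 maintains NK cells and memory CD8+ T cells and is presented on the cell surface by its own receptor chain.

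The sequences upstream of 3 of these genes are printed because the genes behaved differently: Il6 was higher in both spinal cord populations than in the bone marrow, Il12b was highest in APCs, and Ebi3 was not called in any comparison. Each is the 250 bases before a RefSeq start on GRCm38.p6, plus strand, 5′ to 3′, at chr5:30012864-30013113, chr11:44399813-44400062 and chr17:55952373-55952622. Capitals mark matches, on either strand, to a fixed set of motifs. These were the motifs of C/EBP (TTNNGNAA), CRE (TGACGTCA), AP-1 (TGANTCA) and NF-kappaB, whose pattern has ambiguous letters and is given by name. The TATA box was searched for as TATAAA. For IRF the pattern was GAAA repeated after any 2 bases.
Il6: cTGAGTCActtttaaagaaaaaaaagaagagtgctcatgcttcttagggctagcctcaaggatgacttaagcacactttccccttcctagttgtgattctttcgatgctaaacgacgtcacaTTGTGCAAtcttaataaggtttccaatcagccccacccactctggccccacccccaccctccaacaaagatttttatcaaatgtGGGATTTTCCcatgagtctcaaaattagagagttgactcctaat
Il12b: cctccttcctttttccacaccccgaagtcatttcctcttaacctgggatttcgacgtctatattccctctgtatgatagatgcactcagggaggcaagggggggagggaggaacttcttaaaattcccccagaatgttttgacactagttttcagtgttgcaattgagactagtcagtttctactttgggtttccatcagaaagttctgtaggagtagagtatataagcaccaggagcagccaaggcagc
Ebi3: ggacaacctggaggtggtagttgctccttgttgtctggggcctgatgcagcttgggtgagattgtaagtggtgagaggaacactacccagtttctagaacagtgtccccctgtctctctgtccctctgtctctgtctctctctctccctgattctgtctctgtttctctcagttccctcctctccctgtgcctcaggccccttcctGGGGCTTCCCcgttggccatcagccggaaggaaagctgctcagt
The Il6 window holds an NF-kappaB match, GGGATTTTCC, from 44 to 35 bases before the start, a C/EBP match, TTGTGCAA, from 128 to 121, and an AP-1 match, TGAGTCA, from 249 to 243. In the Ebi3 window 1 match was found, the NF-kappaB match GGGGCTTCCC from 44 to 35 bases before the start. The Il12b window holds 0 matches, and so do the windows before both RefSeq starts of Il12a, which says only that these letters are not in those 250 bases. Of 32851 promoter windows of the same length, 3.899% hold the NF-kappaB motif, 36.85% C/EBP, 6.749% AP-1, 2.977% IRF, 1.546% CRE and 12.37% TATA. Matches overlap no other match in these windows. Promoter sequences were matched for 4 of the 10 genes.

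Each population is 1 library, so no difference has a replicate check, no p-value is given, and all intervals cover counting error only. Reads estimated by the authors summed to between 27283795 and 33280643 per library. The APC values came from another set of transcripts, with 22242 genes against 54432, so levels are TPM, shares of transcripts corrected for length, rescaled to the same sum over the common genes. All 7 monocyte markers examined exceeded 3 TPM in every library, and all 9 APC markers did so in both spinal cord libraries. Markers of other cells were present too. The 8 T cell markers summed to 0.768 TPM in the bone marrow library, 64.2 TPM in the spinal cord monocyte library and 97.6 TPM in that of APCs, and 7 of the 8 exceeded 3 TPM in both spinal cord libraries, whereas Cd3g, Cd4 and Trac had 0 reads in the bone marrow. In the same order of libraries, 6 microglia markers summed to 12.8, 86.7 and 226 TPM, 6 markers of conventional dendritic cells to 44.9, 22.4 and 31.2 TPM, 5 NK cell markers to 3.52, 20.1 and 32.6 TPM, and 5 neutrophil markers to 811, 146 and 197 TPM. Most of the dendritic cell sum in the bone marrow was Flt3, at 37.8, 3.65 and 6.65 TPM. By TPM, Flt3 and Dpp4 were lower in spinal cord than in bone marrow monocytes, but Batf3, Clec9a, Itgae and Xcr1 were higher. Itgae and Xcr1 stayed under 3 TPM in both monocyte libraries. By the rule in the next paragraph Flt3 was called lower, Batf3 and Clec9a higher, and Dpp4 was not called. The neutrophil sum was mostly Mmp8, at 707, 119 and 137 TPM, and among these markers Cxcr2 alone was higher in spinal cord than in bone marrow monocytes. The part of these cells in the results was not tested.

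Fold changes are log2 ratios of reads scaled by library size factors, with a 98% interval, and a gene was called when that interval lay beyond a 2-fold change and its TPM exceeded 3 in at least 1 of the 2 libraries. Between bone marrow and spinal cord monocytes, 6 of the 10 genes were called higher in the spinal cord (Il12a, Il23a, Il27, Il6, Il10 and Il10ra) and 0 lower. For comparison, 13.8% of all genes tested were called higher and 10.7% lower. Genes tested are those over 3 TPM in at least 1 of the 2 libraries, here 9 of the 10, without Il12b. Between spinal cord monocytes and APCs, Il12b was called higher and none of the 10 genes lower, where 1.93% of all genes were called higher and 1.70% lower. Between bone marrow monocytes and APCs, 5 were called higher (Il12a, Il12b, Il23a, Il6 and Il10) and 0 lower, beside 14.0% and 11.8% of all genes. The 3 comparisons share libraries and are not independent of each other. Of the 10 genes, 5 were over 3 TPM in bone marrow monocytes, 9 were in spinal cord monocytes, and all 10 in APCs. The 8 cytokine genes summed to 45.3, 140.1 and 112 TPM in the same order. In the bone marrow 55.3% of that sum was Ebi3 and 33.5% Il15. In spinal cord monocytes Il6 made up 41.0% of it, and 28.4% in APCs, and Il12b 0.679% and 11.4%. In bulk RNA, fewer cells of a type and less RNA per cell cannot be told apart.

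**Figure D1:**
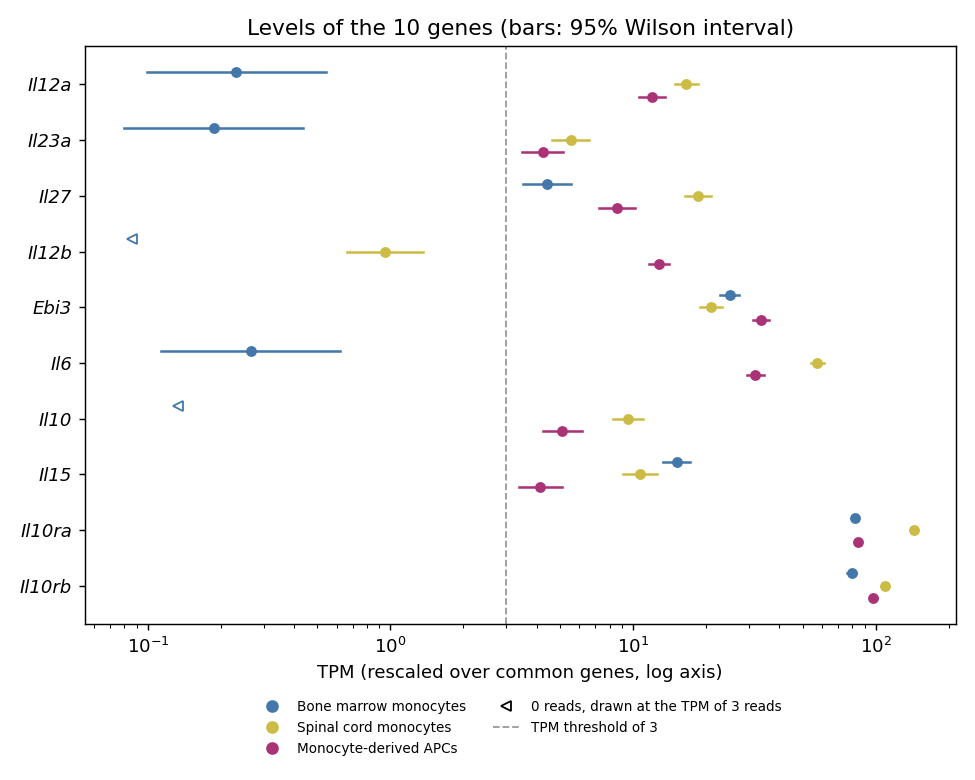
Rescaled TPM of each of the 10 genes (log axis) in the 3 libraries, 1 point a library, with 95% Wilson intervals as bars. Open triangles stand at the TPM of 3 reads for genes with 0 reads, and the dashed line is the threshold of 3 TPM. Il12b lies under the threshold in both monocyte libraries and at 12.8 TPM in APCs.

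Il12a (ENSMUSG00000027776.12), which encodes the alpha chain of IL-12, lies on the plus strand at chr3:68690644-68698547 (GRCm38). The bone marrow library held 5 reads, the spinal cord monocyte library 315 and the APC library 254, or 0.232, 16.6 (95% interval 14.8 to 18.5) and 11.97 TPM (10.6 to 13.5). Both spinal cord libraries stood far above the bone marrow library, and their intervals did not overlap each other. Against bone marrow monocytes, spinal cord monocytes were higher by 6.28 on the log2 scale (98% interval 5.05 to 7.96). APCs against spinal cord monocytes gave -0.47 (-0.75 to -0.18), which was not called.

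Il23a (ENSMUSG00000025383.2), the alpha chain gene of IL-23, lies on the minus strand at chr10:128296139-128298752. The 3 libraries, in the same order, held 5, 123 and 98 reads, at levels of 0.187, 5.53 (95% interval 4.63 to 6.59) and 4.23 TPM (3.47 to 5.16). It was called higher in spinal cord than in bone marrow monocytes, with 4.93 on the log2 scale (98% interval 3.68 to 6.62). The intervals of both spinal cord levels overlapped. On reads, the log2 fold change between these populations was -0.48 (-0.94 to -0.03). After division by effective length the interval included 0, with -0.30 (-0.76 to 0.15).

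Il27 (ENSMUSG00000044701.5), the alpha chain gene of IL-27, lies on the minus strand at chr7:126589010-126594941. Unlike Il12a and Il23a, it was already over the threshold in bone marrow monocytes, with 72 reads or 4.42 TPM. Spinal cord monocytes had 267 reads or 18.5 TPM, and APCs 138 reads or 8.58 TPM, so the level was highest in spinal cord monocytes and the 95% intervals of the 3 libraries did not overlap. The increase between both monocyte populations was called, at 2.36 on the log2 scale (98% interval 1.93 to 2.82). It was not called with an assumed spread between libraries of 0.4 (coefficient of variation), with an interval of 0.31 to 4.45. The difference between APCs and spinal cord monocytes, -1.11 (-1.46 to -0.76), spanned the 2-fold limit and was not called. Il27 shares 103 of its 1021 exonic bases with Apobr, a gene on the opposite strand with 8931, 3755 and 4855 reads in the same order. The part of Apobr in the reads of Il27 was not tested, and whether the counting used strand is not given in the sources used here.

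Il12b (ENSMUSG00000004296.14) encodes the beta chain that IL-12 and IL-23 share, and lies on the plus strand at chr11:44400063-44414033. Its reads numbered 0 in the bone marrow library, 29 in spinal cord monocytes and 427 in APCs. With 0 reads, the 95% interval in the bone marrow reached 0.110 TPM, and the floor of 3 reads was 0.0857 TPM. Spinal cord monocytes had a level of 0.952 TPM (95% interval 0.663 to 1.37) and APCs one of 12.8 TPM (11.7 to 14.1), and no intervals overlapped. From spinal cord monocytes to APCs it rose 12.9-fold, or by 3.69 on the log2 scale (98% interval 3.09 to 4.37). On reads divided by effective length the value was 3.80. With the 0 bone marrow reads set to 3, scaled reads were 13.5-fold higher in spinal cord than in bone marrow monocytes. The 98% interval of the log2 fold change, with 1 read added, started lower, at 3.07. This difference was not called because neither library exceeded 3 TPM. On the same basis APCs were 178-fold higher than bone marrow monocytes, with an interval that started at 6.86 on the log2 scale. In APCs 72.8% of all common genes had a lower TPM than Il12b, and in spinal cord monocytes 50.8%.

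The rise of Il12b between both spinal cord populations ran beside that of 7 of 9 APC markers called higher in the same step (Ccl22, Ccr7, Ccl17, Itgax, H2-Ab1, Cd74 and H2-Aa). Of all genes tested, 1.93% were called higher in this step. The paper already describes these markers as raised in APCs, from the same libraries. Their calls were therefore known beforehand and are no independent check. Ccr7, a chemokine receptor of migrating antigen-presenting cells, had 1, 114 and 3594 reads. Of the 6 markers of conventional dendritic cells, which also make IL-12 and which the CD64 gate was meant to leave out, Itgae and Dpp4 were called higher in APCs. All 6 microglia markers were called higher in that step. Of the 8 T cell markers, 7 exceeded 3 TPM and 0 were called, but their median log2 fold change was 0.74, beside -0.04 over all genes tested. Itgae and the microglia marker Slc2a5, at 3.24 and 3.38 TPM in APCs, would not be called with an activity threshold of 4 TPM. Their part in the rise of Il12b was not tested.

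Ebi3 (ENSMUSG00000003206.7), the beta chain gene of IL-27, lies on the plus strand at chr17:55952640-55957022. It was the most abundant of the 8 cytokine genes in the bone marrow, with 479 reads or 25.0 TPM (95% interval 22.9 to 27.4), and stood at 355 reads or 20.9 TPM (18.8 to 23.2) in spinal cord monocytes. APCs had 634 reads or 33.6 TPM (31.1 to 36.4). The intervals of both monocyte libraries overlapped, and the APC library lay above both. Its log2 fold changes were 0.05 (98% interval -0.19 to 0.28) between both monocyte populations and 0.68 (0.46 to 0.90) between spinal cord monocytes and APCs, and neither was called. Ebi3 shares 270 of its 1154 exonic bases with the antisense gene Gm16712, which had 8 reads in bone marrow and 1 in spinal cord monocytes and was not among the genes listed for APCs.

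**Figure D2:**
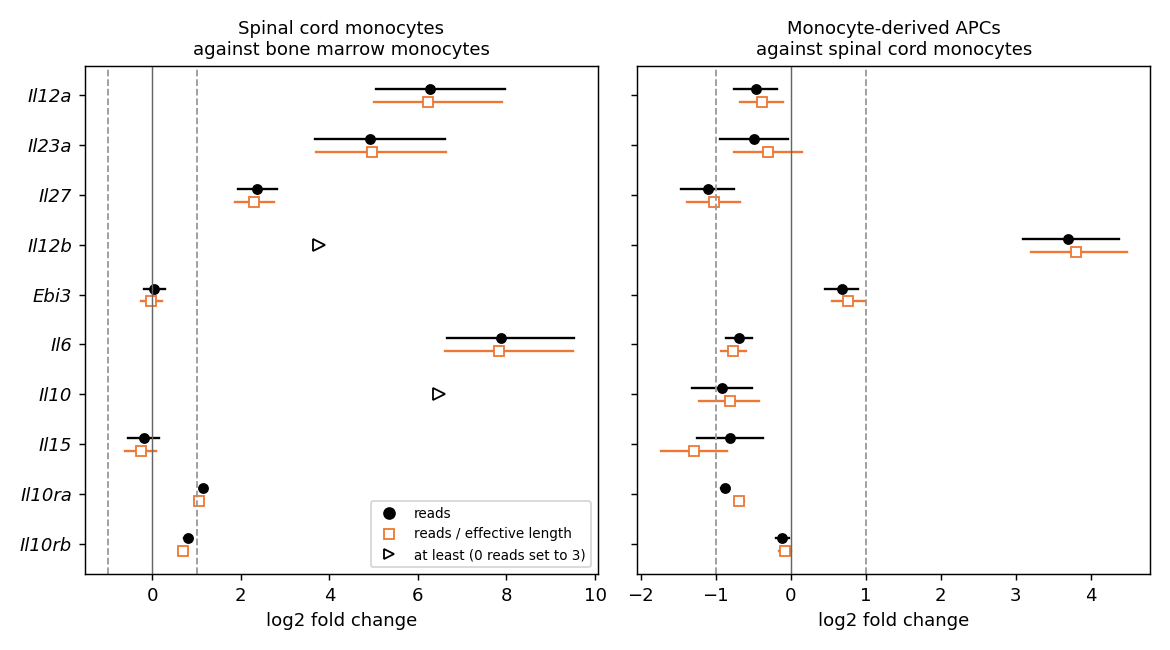
Log2 fold changes of the 10 genes for spinal cord against bone marrow monocytes (left) and APCs against spinal cord monocytes (right), each panel on its own scale, from reads (filled circles) and from reads divided by effective length (open squares), with 98% intervals as bars. Open triangles are lower bounds for Il12b and Il10, which had 0 reads in the bone marrow, and dashed lines mark a 2-fold change. In the right panel the interval of Il12b alone lies wholly beyond the 2-fold line above 0.

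The chains of one heterodimer were compared within a library, per effective length. In spinal cord monocytes the RNA of the IL-12 alpha chain exceeded that of the beta chain, with 17.4 times as much Il12a as Il12b and a ratio of Il12b to Il12a of 0.0586 (98% interval 0.0364 to 0.0893). In APCs the ratio was 1.07 (0.891 to 1.29), so the RNA of both chains stood within counting error of each other. In bone marrow monocytes, with 0 and 5 reads, the ratio was 0.370 with 0 reads set to 3, and its 98% interval reached 0.712. In spinal cord monocytes Il12b to Il23a was 0.175 (0.106 to 0.276), and APCs had 3.01 (2.34 to 3.93), so the beta chain was the scarcer RNA in the former and the more abundant in the latter. The 2 alpha chains kept closer to each other, since Il23a to Il12a was 0.334 (0.260 to 0.426) in the spinal cord monocyte library and 0.355 (0.268 to 0.466) in the APC library. It was 0.807 (0.194 to 3.35) in the bone marrow, on 5 reads each.

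For IL-27 the order differed. Ebi3 exceeded Il27 5.62-fold (98% interval 4.24 to 7.62) in the bone marrow and 3.90-fold (3.15 to 4.88) in APCs, while in spinal cord monocytes the ratio was 1.13 (0.935 to 1.36), within counting error of equal RNA. The intervals in bone marrow monocytes and APCs overlapped each other and neither overlapped that in spinal cord monocytes. RNA ratios do not measure the amount of the secreted heterodimers.

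**Figure D3:**
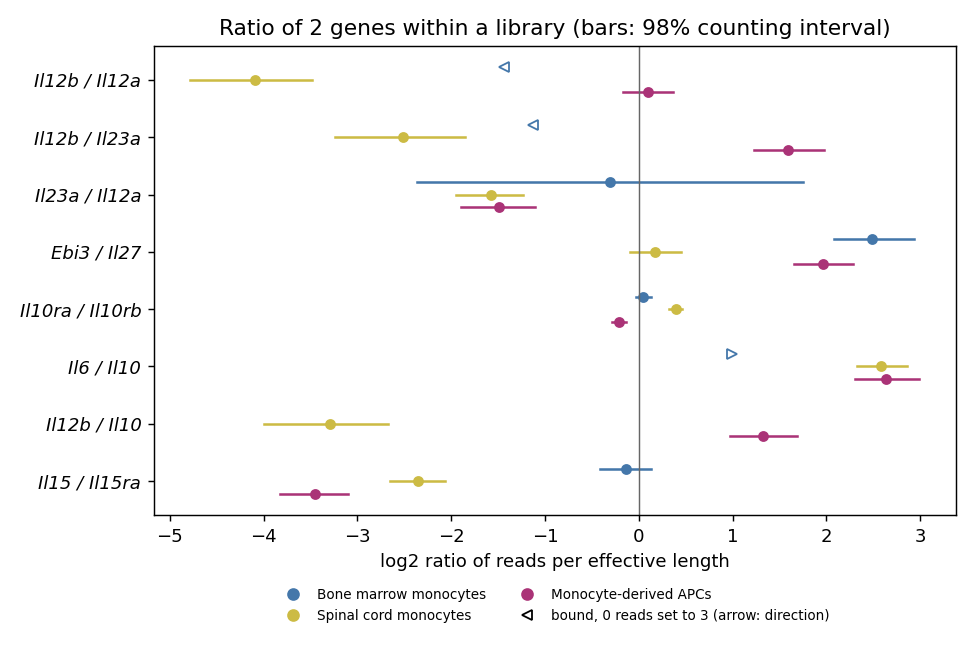
Log2 ratio of 2 genes within 1 library, from reads per effective length, for 8 pairs of chains, ligands or ligand and receptor, with 98% intervals as bars and open triangles for bounds where a gene had 0 reads. The ratios of Il12b to Il12a, to Il23a and to Il10 lie below 0 in spinal cord monocytes. For APCs the last 2 lie above 0 and the first within counting error of 0.

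Il6 (ENSMUSG00000025746.11) lies on the plus strand at chr5:30013114-30019981 and encodes a cytokine of inflammation and Th17 differentiation. There were 5 reads in the bone marrow library, 946 in that of spinal cord monocytes and 656 in that of APCs, or 0.265, 57.5 and 32.0 TPM. Spinal cord monocytes were higher than bone marrow monocytes by 7.87 on the log2 scale (98% interval 6.65 to 9.54). In spinal cord monocytes it was the most abundant of the cytokine genes. In APCs its 95% interval (29.6 to 34.5 TPM) overlapped that of Ebi3. From spinal cord monocytes to APCs the log2 fold change was -0.68 (98% interval -0.86 to -0.51), short of a 2-fold difference.

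Il10 (ENSMUSG00000016529.5), on the plus strand at chr1:131019845-131024974, encodes a cytokine that dampens macrophages, APCs and T cells. It had 0 reads in the bone marrow, where the 95% interval reached 0.171 TPM and the floor of 3 reads was 0.134 TPM. Spinal cord monocytes had 191 reads or 9.54 TPM (95% interval 8.28 to 11.0), while APCs had 113 reads or 5.11 TPM (4.25 to 6.15). On scaled reads, with the 0 bone marrow reads set to 3, Il10 was 88.9-fold higher in spinal cord monocytes and 47.2-fold higher in APCs than in bone marrow monocytes. Both differences were called. Between both spinal cord populations its log2 fold change was -0.91 (98% interval -1.31 to -0.52), which was not called. Il6 exceeded Il10 6.01-fold (5.02 to 7.25) in spinal cord monocytes, APCs had 6.22-fold (4.94 to 7.93), and the intervals overlapped. The ratio of Il12b to Il10, in contrast, was 0.102 (0.0626 to 0.157) in the former and 2.50 (1.96 to 3.21) in the latter.

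Il15 (ENSMUSG00000031712.10), on the minus strand at chr8:82331632-82403222, was ordered the other way by TPM, highest in the bone marrow. The levels were 15.2 TPM (95% interval 13.3 to 17.2), 10.7 TPM (9.12 to 12.6) and 4.15 TPM (3.39 to 5.08) on 234, 146 and 93 reads, with no overlap of the intervals. On reads it was not called in any comparison. Spinal cord against bone marrow monocytes gave a log2 fold change of -0.20 on scaled reads. APCs against bone marrow monocytes gave a 98% interval of -1.42 to -0.60. Its effective length was 723 bases in bone marrow and 703 in spinal cord monocytes but 1075 in APCs, where another transcript set was used. Divided by effective length, the same comparison gave -1.54 (-1.96 to -1.13), which met the rule for a call. The transcript set and the population cannot be told apart here.

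**Figure D4:**
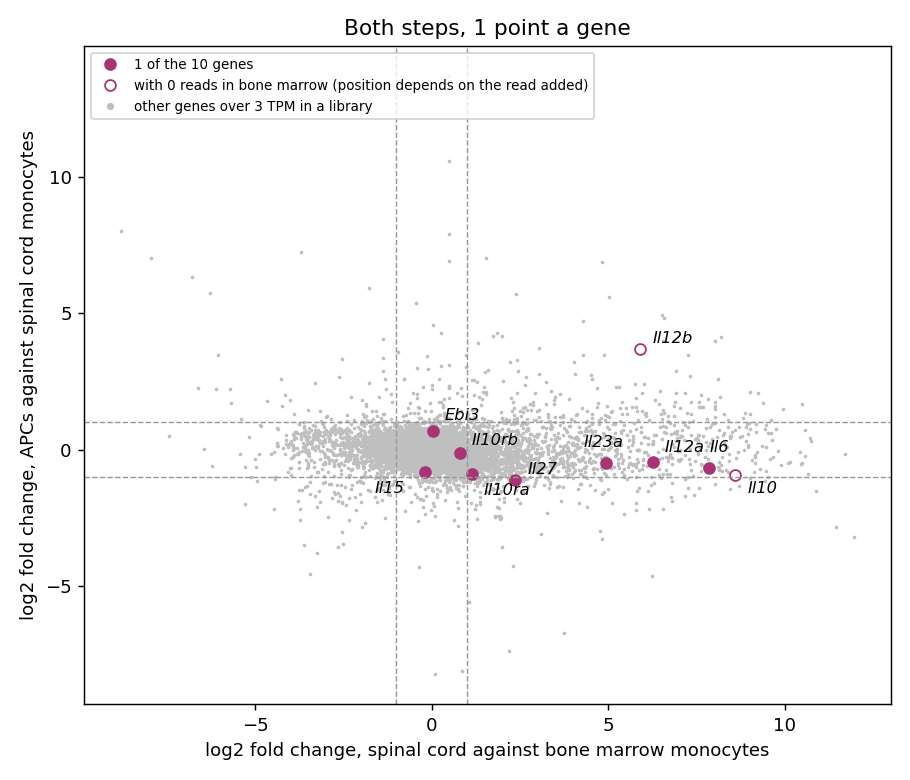
Log2 fold change from spinal cord monocytes to APCs (vertical) against that of spinal cord over bone marrow monocytes (horizontal), 1 point for each of 10307 genes over 3 TPM in at least 1 library. The 10 genes are marked, with open circles for Il12b and Il10, whose horizontal position depends on the read added to their 0 reads in the bone marrow, and dashed lines mark 2-fold changes. Il12b is the gene of the 10 that lies above the upper dashed line.

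Il10ra (ENSMUSG00000032089.16), on the minus strand at chr9:45253837-45269149, encodes the ligand-binding chain of the IL-10 receptor, and Il10rb (ENSMUSG00000022969.13), on the plus strand at chr16:91406164-91425834, the chain shared with the IL-22 receptor. These were the most abundant of the 10 genes in every library. Il10ra stood at 82.2, 144 and 84.3 TPM (5580, 8877 and 5397 reads), with its highest level in spinal cord monocytes. It was called higher there than in the bone marrow, at 1.15 (98% interval 1.09 to 1.21), and not called when scaled to total reads (0.97), divided by effective length (1.05, 98% interval 0.99 to 1.10) or given an assumed spread of 0.2. Il10rb stood at 79.6, 109 and 97.8 TPM (2542, 3200 and 3306 reads) and was not called in any comparison. Its exons share 569 of 3808 bases with Gm21970 on the same strand, which had 0, 0 and 9 reads. Per length, Il10ra to Il10rb was 1.03 (0.978 to 1.09), 1.32 (1.25 to 1.38) and 0.862 (0.819 to 0.908) in the same order of libraries. Both receptor chains were present in bone marrow monocytes, where Il10 itself had 0 reads.

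The other receptor chains for these cytokines were divided. Of 9 chains, 7 exceeded 3 TPM in a spinal cord or bone marrow monocyte library, and 5 of them were called higher in spinal cord than in bone marrow monocytes (Il12rb1, Il12rb2, Il15ra, Il2rb and Il2rg) and 2 lower (Il6ra and Il6st). The median log2 fold change of the 7 was 2.76, and -0.15 over all genes tested. Between both spinal cord populations 0 of 7 were called, with a median of -0.10 beside -0.04 over all genes. Of all genes tested, 1.93% were called higher in this step and 1.70% lower. Between bone marrow monocytes and APCs 5 were called higher and 2 lower, with a median of 3.10 beside -0.17.

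Il12rb1, the chain common to the IL-12 and IL-23 receptors, stood at 0.494 TPM in the bone marrow library and at 12.5 and 10.2 TPM in those of spinal cord monocytes and APCs. Its partner for IL-12, Il12rb2, stood at 1.33, 7.31 and 10.2 TPM, and its partner for IL-23, Il23r, at 0.0210, 0.117 and 0.321 TPM on 1, 5 and 15 reads. Il27ra, for IL-27, had 0.156, 1.95 and 2.03 TPM. These last 2 stayed under 3 TPM in all 3 libraries. T cells and NK cells express the chains for IL-12, and the T cell markers summed to 0.768, 64.2 and 97.6 TPM in the same libraries. Their part in these levels was not tested.

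Il6ra and Il6st, the ligand-binding and signalling chains of the IL-6 receptor, were highest in the bone marrow, at 209 and 82.3 TPM, against 57.5 and 19.9 TPM in spinal cord monocytes. In APCs they stood at 43.1 and 20.5 TPM. They fell by 1.57 (Il6ra) and 1.53 (Il6st) on the log2 scale between bone marrow and spinal cord monocytes, the step in which Il6 rose. Il15ra, which presents IL-15, stood at 16.7, 54.8 and 45.7 TPM. The ratio of Il15 to Il15ra was 0.911 (98% interval 0.754 to 1.10), 0.196 (0.159 to 0.239) and 0.0915 (0.0705 to 0.117) in the same order. Il2rb, the signalling chain for IL-15 that NK and T cells carry, had 1, 403 and 795 reads, or 0.0119, 6.76 and 11.2 TPM. Il2rg, the common gamma chain, stood at 47.6, 282 and 337 TPM.

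**Figure D5:**
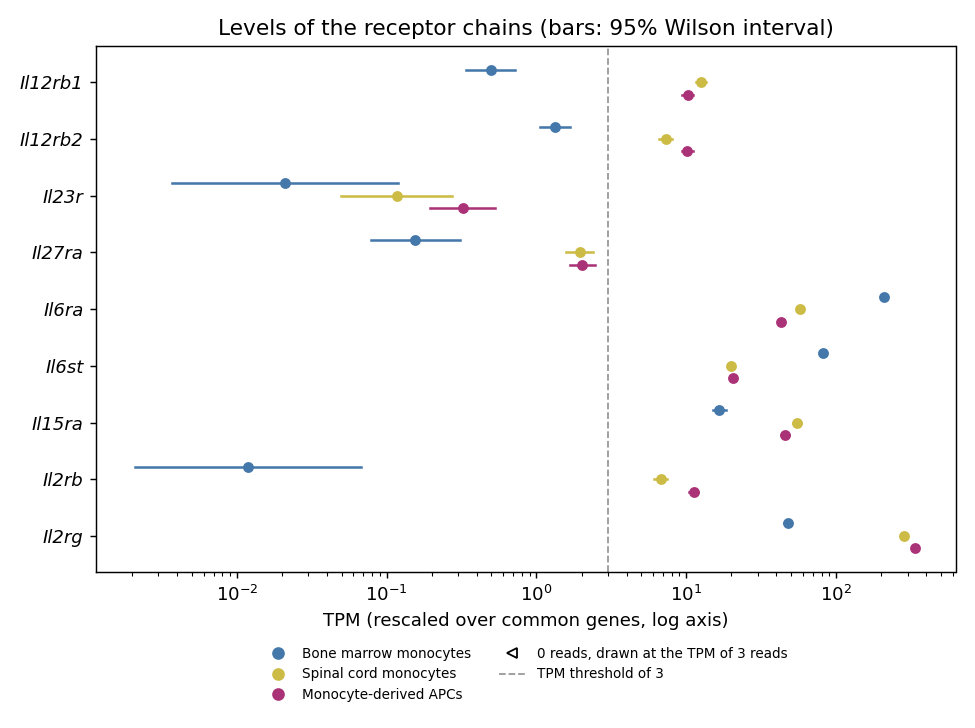
Rescaled TPM (log axis) of 9 receptor chains in the 3 libraries, 1 point a library, with 95% Wilson intervals as bars and the threshold of 3 TPM as a dashed line. Il6ra and Il6st are highest in bone marrow monocytes, and Il23r and Il27ra lie below the threshold in every library.

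A list of 10 JAK, STAT and SOCS genes, through which these receptors signal, was examined. In spinal cord against bone marrow monocytes 3 were called higher (Socs3, Socs1 and Jak2) and Stat5b was called lower, with a median of 0.11. Over all genes tested 13.8% were called higher and 10.7% lower, with a median of -0.15. Socs1, an inhibitor of JAK signalling, stood at 0.519, 22.8 and 11.5 TPM, and Socs3, which inhibits signalling by the IL-6 receptor, at 27.8, 909 and 772 TPM. Stat4, the transcription factor activated by IL-12, was the 1 gene of this list called between both spinal cord populations. There 1.93% of all genes tested were called higher and 1.70% lower. Between bone marrow monocytes and APCs, 5 of the 10 were called higher (Socs3, Socs1, Jak2, Stat4 and Jak3) and 2 lower (Stat5b and Tyk2). The median of the 10 was 0.55, beside -0.17 over all genes tested, of which 14.0% were called higher and 11.8% lower. Stat4 had 246, 122 and 576 reads, or 4.43, 2.75 and 10.5 TPM, and the difference between both spinal cord populations was 2.08 (98% interval 1.75 to 2.42). T cells and NK cells also express Stat4, and the part of these cells was not tested.

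Of 21 transcription factors that act at cytokine genes, all 21 exceeded 3 TPM in the first comparison. In it 13 were called higher in spinal cord than in bone marrow monocytes and 0 lower, with a median of 1.89. Over all genes tested the shares were 13.8% and 10.7%, with a median of -0.15. Bhlhe40, a repressor of Il10, stood at 9.34, 557 and 484 TPM. Prdm1, which encodes BLIMP-1, stood at 2.57, 84.8 and 69.1 TPM, and Nfkbiz, an atypical IkappaB protein needed for Il6 induction, at 15.4, 254 and 173 TPM. None of the 21 was called between spinal cord monocytes and APCs, and their median there was -0.26. Of all genes tested, 1.93% were called higher and 1.70% lower in that step, with a median of -0.04. Between bone marrow monocytes and APCs 13 were called higher and 0 lower, with a median of 1.64. Over all genes tested the shares were 14.0% and 11.8%, with a median of -0.17. Of 8 genes that respond to IL-10 in macrophages, 6 were called higher in spinal cord than in bone marrow monocytes (Socs3, Nfil3, Il4ra, Zfp36, Ddit4 and Etv3), with a median of 2.08, and 0 between both spinal cord populations. APCs against bone marrow monocytes also gave 6 called higher and 0 lower, with a median of 1.79. The shares and medians over all genes are those given for the 21 factors. These 8 genes also respond to other signals. Nfil3 stood at 72.2, 448 and 373 TPM and Il4ra at 62.1, 228 and 166 TPM.

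Of 10 other cytokines of the IL-6 and IL-10 families, Lif and Osm were called higher in spinal cord than in bone marrow monocytes. None was called between both spinal cord populations. Of all genes tested, 13.8% were called higher and 10.7% lower in the former step, and 1.93% and 1.70% in the latter. Lif stood at 0.186, 23.7 and 10.9 TPM. Clcf1, at 0.173, 2.93 and 3.71 TPM, was called, like Lif and Osm, between bone marrow monocytes and APCs, and would not be with an activity threshold of 4 TPM. Of 11 other cytokines that polarize T cells, Il1b, Il18 and Ifng were called in the first comparison. Between bone marrow monocytes and APCs, Il1b and Ifng were called. Ifng alone was called between both spinal cord populations, with 0, 129 and 443 reads, or 7.14 and 22.2 TPM in both spinal cord libraries, and was higher in APCs by 1.62 on the log2 scale (98% interval 1.29 to 1.96). Interferon-gamma is a product of Th1 and NK cells, whose markers stood in these libraries at the sums given above, and their part was not tested. None of Il2, Il7, Il9 and Il21, which signal through the common gamma chain, exceeded 3 TPM in any library.

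Genes with the pattern nearest to each of the 10 were found by the distance between the 2 log2 fold changes (spinal cord against bone marrow monocytes and APCs against spinal cord monocytes) over 10307 genes in these 3 libraries. Nearest to Il12b were Cacnb3, a calcium channel subunit, at a distance of 0.71, and Plet1, at 1.03. Cacnb3 had 0, 46 and 814 reads and Plet1 1, 35 and 444. For the other 9 genes the nearest gene lay at a distance of 0.12 or less, as with Mgarp for Il12a (0.11), Adgrf5 for Il6 (0.12) and Colgalt1 for Ebi3 (0.02). For Il12b and Il10 this distance depends on the read added to 0 reads in the bone marrow. Il12a and Il6 had 5 reads each there, Mgarp 1 and Adgrf5 2. Counting error does not enter the distances, and the 98% interval of Il12a in the first fold change alone was 5.05 to 7.96.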

How the data were processed

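RNA-Seq of 3 sorted populations was done with 1 pooled library each. The authors quantified reads with Salmon 0.14.1 on GENCODE vM22 transcripts (mm10) and pooled transcripts by gene. They deposited TPM, normalized for effective length and library size, and estimated counts of reads, not normalized and partly fractional. The APC values rest on another transcript set, not described in the sources used here.

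Analyses covered the 22238 genes common to all libraries, with 26116588 to 32115707 reads, rounded to whole numbers. Symbols, exons and positions came from GENCODE M21 on GRCm38, which has the identifier and version of all 10 genes. The paper calls changed genes with GFold. The tool was not run. Its definition was computed anew: gamma distributions of reads plus 1, over median-of-ratios size factors from the 3 libraries, gave a log2 ratio with its percentiles 1 and 99. The paper gives an activity threshold of 2 on log2 TPM. It was taken as log2 of TPM plus 1, which is 3 TPM and is an assumption. On log2 of TPM alone it would be 4 TPM, which was an alternative. Levels have 95% Wilson intervals, and the floor is 3 reads. With 1 library per group no test of conditions was possible. Pair ratios used reads divided by effective length. Calculations were tested on simulated data.

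The 10 genes, the gene lists and the comparisons were chosen with earlier results of these data known. All 10 genes and all receptor chains are named. Of every other list, up to 3 called genes per direction and comparison could be named, those with the interval bound farthest from 0 change, along with genes under 3 TPM in every library and the 2 genes nearest to each of the 10. Zfp36, Ddit4, Etv3, Jak3 and the APC markers are named to complete counts. Results on 1 further signalling gene are not reported here.

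Alternatives were no TPM threshold or one of 4, an assumed coefficient of variation between libraries of 0.2 or 0.4, scaling by total reads or TMM factors, division of reads by effective length, a bound at 0.001, 0.5 reads added, a plain 2-fold change, genes without ribosomal protein and mitochondrially encoded genes, TPM plus 1 or 0.1, TPM as deposited, and all genes of the monocyte libraries. R 4.3.3 with edgeR 4.0.16 (TMM factors only) and Python 3.11.15 with scipy 1.17.1, pandas 2.3.3, numpy 2.4.6 and matplotlib 3.10.9 were used. No other columns of sample values were present. Flow cytometry was not analysed here.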

Additional observations from a re-analysis of the deposited data

How the results depend on the processing

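Over the 3 comparisons, 382 of 400 alternative fold changes of the 10 genes kept their direction and their side of the rule for a call, 8 were no longer called (7 of Il10ra and 1 of Il27, all between bone marrow and spinal cord monocytes), 10 were newly called and 0 reversed. Il12b was called between spinal cord monocytes and APCs under every alternative listed above that applies to that comparison. With no TPM threshold it was also called between bone marrow and spinal cord monocytes. The number of the 10 genes called lower from spinal cord monocytes to APCs, 0 in the report, was 1 (Il27) with a plain 2-fold change and 2 (Il27 and Il15) with TPM plus 1 or TPM plus 0.1. From bone marrow monocytes to APCs it was 1 (Il15) on reads divided by effective length, with TPM plus 1 and with TPM plus 0.1. Without division by length, the log2 ratio of Il10ra to Il10rb in APCs reversed from -0.21 to 0.71, and other ratios of genes of unequal length moved too. Scaling to total reads moved the median gene by -0.18 between bone marrow and spinal cord monocytes and by -0.14 between bone marrow monocytes and APCs. Of all genes called between spinal cord monocytes and APCs, 53.3% were higher on reads, but 42.0% after division by effective length. TPM as deposited was lower in both monocyte libraries, since 84.9% and 85.3% of it lay in the common genes. No paired analysis was possible because each group has 1 library, and for the same reason no replicate could be left out. Depth limits Il12b, Il10, Il12a, Il23a and Il6 in the bone marrow, with 0 to 5 reads each.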
